A study of Mus musculus with 9 samples.

Results

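Pretreatment with DHA, docosahexaenoic acid, a long-chain omega-3 fatty acid, before LPS was compared with LPS alone in wild-type mouse intraperitoneal macrophages, by RNA-seq. The comparison used 6 of the 9 libraries of the series, 3 per group, and 13895 of the 15343 genes in the table, those that reached a normalized read count of 10 in 3 or more of the 9 libraries. DHA + LPS cells received 100 µM DHA for 1 h and then 100 ng/ml LPS for 6 h. LPS cells received 100 ng/ml LPS for 6 h, and their labels give no pretreatment or vehicle, so DHA and the pretreatment step cannot be told apart. All 6 libraries are titled WT, their strain is written CF7B1/6, and no unstimulated cells were analysed here. The remaining 3 libraries, given 10 µM cpdA before LPS, enter below only where they helped to estimate the spread between libraries. The labels do not say whether the 3 libraries of a group came from separate mice or cultures, so p-values measure only the spread between these libraries, which may be technical.

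LPS, lipopolysaccharide from the outer membrane of Gram-negative bacteria, is sensed by TLR4. In macrophages TLR4 signals through MyD88 to NF-kB and MAP kinases, which drive cytokine and chemokine genes, and through TRIF to interferon beta, which acts back on the cell and drives antiviral and guanylate-binding protein genes. Long-chain fatty acids such as DHA are stored in lipid droplets, oxidised in mitochondria, act as ligands of PPAR nuclear receptors, hold back the processing of SREBP1 and stimulate the receptor GPR120, the product of Ffar4.

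Depth and likeness differed within groups. Recovered depth was 27169850 to 29521323 reads in LPS and 13797079, 24842170 and 26671807 reads in DHA + LPS 1, 2 and 3, so 1 read is worth 2.23 normalized counts in DHA + LPS 1 and 1.02 to 1.15 in the other 5. The first principal component of the 6 libraries held 48.3% of the variance and placed LPS 3 at -58.2 and the other 5 between -4.96 and 27.8. The second component held 26.0% and placed DHA + LPS 1 beside LPS 1 and 2, at 18.3 to 22.2, and the other 3 libraries below 0. Macrophage markers were present in every library: the 11 genes of that list summed to 362348 normalized counts in LPS 3 and to between 591327 and 616079.5 in the other 5. The low sum followed Lyz2 (lysozyme), which had 448027, 459407 and 210386 normalized counts in LPS and 447053, 448553 and 459826 in DHA + LPS. Many results below are therefore also given without LPS 3. A change given without such a value may still be moved by that library.

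With the spread estimated over all 9 libraries, 1 gene of 13895 passed limma's test at an adjusted p under 0.05 (0.0072%), Cpt1a. Estimated from the 6 compared libraries alone, 9 genes passed (0.0648%), 4 higher and 5 lower. In a fit of 8 libraries, without cpdA 3, which belongs to neither group compared, 373 genes passed (2.68%): 154 were higher with DHA (1.11%) and 219 lower (1.58%). The 9 genes, Cpt1a among them, are all part of these 373. Leaving out any other library from the 9 gave at most 2 calls. The change of a gene is the same in all 3 fits, and only its error differs. The 8-library fit was chosen with earlier results of these data known, and it was not stable to the libraries used. It called 32 genes without LPS 1, 142 without LPS 2, 943 without LPS 3, 1010 without DHA + LPS 1, 17 without DHA + LPS 2, 0 without DHA + LPS 3, 9 without cpdA 1 and 22 without cpdA 2. "Rose" and "fell" below refer to genes called in this 8-library fit (limma, Benjamini-Hochberg adjusted p under 0.05), and apart from the 9 genes none of those calls was made from the 6 or the 9 libraries. Changes are log2 differences of the normalized count + 1, DHA + LPS minus LPS, and SE is that of the 8-library fit.

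A count that needs no fit is that of genes whose 3 DHA + LPS libraries lay all above or all below the 3 LPS libraries. Of 11555 genes with a mean of at least 50 normalized counts in the higher group, 1601 lay above (13.9%) and 1910 below (16.5%). Most of these gaps were narrow, with a median distance between the nearest libraries of 0.11 (log2) for genes above and -0.11 for genes below. In all 373 called genes the groups did not overlap, so non-overlap of a called gene adds no separate support to its call. Of the 373 called genes, 85 changed by at least 1 on the log2 scale, 37 higher and 48 lower. The median change was 0.74 among the 154 and -0.70 among the 219, against a median of -0.0007 over all 13895 genes, 49.8% of which had a positive change. Called genes did not move equally in the 3 DHA + LPS libraries: DHA + LPS 2 lay farthest from LPS in 95 of the 154 and 179 of the 219, and DHA + LPS 1, the shallowest, lay nearest to LPS in 83 and 149. LPS 3 was the LPS library farthest from DHA + LPS in 109 of the 154 and 188 of the 219. The 1601 genes above and 1910 below showed this order too, in smaller shares. Among them DHA + LPS 2 lay farthest in 52.5% and 67.5%, against 61.7% and 81.7% of called genes. DHA + LPS 1 lay nearest in 51.3% and 52.7%, against 53.9% and 68.0%. LPS 3 lay farthest in 65.3% and 73.4%, against 70.8% and 85.8%. The part of depth and of LPS 3 in these calls was not tested beyond the fits without them.

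**Figure D1:**
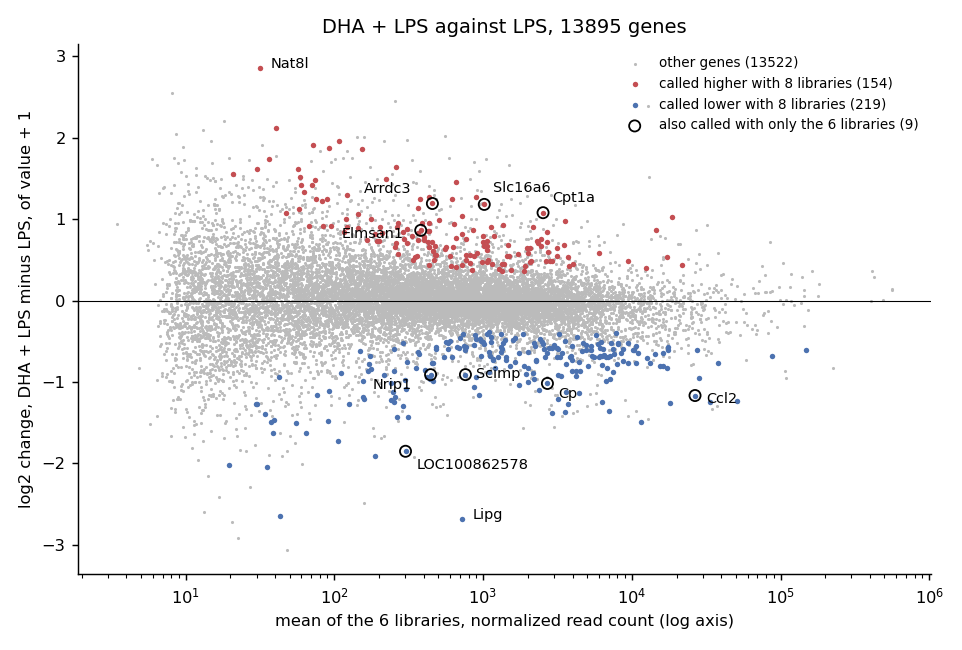
Change against level. The x axis is the mean of the 6 libraries in normalized read counts (log axis) and the y axis the log2 change of the count + 1 (DHA + LPS minus LPS); each point is a gene, in red for the 154 called higher and in blue for the 219 called lower in the 8-library fit, with rings around the 9 genes that also passed with the 6 libraries alone.

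Of the 9 genes called from the 6 libraries alone, 4 rose. Cpt1a, the carnitine acyltransferase that admits long-chain fatty acids to mitochondria, had 1532, 1504 and 1848 normalized counts in LPS 1, 2 and 3 and 3712, 3179 and 3418 in DHA + LPS 1, 2 and 3. Every DHA + LPS library was above every LPS library, a 2.11-fold rise (log2 change 1.08, SE 0.10; limma adjusted p = 0.00796 with 8 libraries, 0.0453 with 6 and 0.0358 with 9). Slc16a6, of the monocarboxylate transporter family, had 671, 679.9 and 524 in LPS and 1507, 1267 and 1466 in DHA + LPS, 2.27-fold higher (log2 change 1.18, SE 0.12; limma adjusted p = 0.00796 with 8 libraries and 0.0453 with 6). Arrdc3, an arrestin-domain protein involved in receptor internalisation, stood at 284, 273 and 273 in LPS and at 562, 699 and 649 in DHA + LPS. It rose 2.29-fold (log2 change 1.19; limma adjusted p = 0.00796 with 8 libraries and 0.0453 with 6). Elmsan1, which associates with histone deacetylase complexes, had 256, 282 and 271 in LPS and 473, 526 and 478 in DHA + LPS, a rise of 0.86 (log2; limma adjusted p = 0.0466 with 6 libraries). For these 4 genes the nearest pair of libraries from the groups differed by at least 0.74 (log2).

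The other 5 of the 9 genes fell. Ccl2, the chemokine that draws monocytes through the receptor CCR2, had 38433, 37413 and 34516 normalized counts in LPS and 18242, 14346 and 16774 in DHA + LPS, so that each DHA + LPS library held less than every LPS library (0.446 of the LPS level; log2 change -1.17, SE 0.12; limma adjusted p = 0.00796 with 8 libraries and 0.0453 with 6). Nrip1, a corepressor of nuclear receptors that restrains fatty acid oxidation genes in other tissues, had 629, 562 and 548 in LPS and 328, 304 and 292 in DHA + LPS (log2 change -0.91). Cp, ceruloplasmin, the copper-carrying ferroxidase, had 3329, 3462 and 4098 and 1749.9, 1642 and 1979 (log2 change -1.02). In Scimp, a membrane adaptor of immune cells that binds TLRs and Src-family kinases, the counts were 927, 1015 and 1038 and 568, 466 and 555 (log2 change -0.91). LOC100862578, a gene model with no name in the table, showed the largest change of the 9, with 388, 419.5 and 611 in LPS and 145, 99.2 and 145 in DHA + LPS (log2 change -1.85, and -1.65 without LPS 3). As a gene model of the LOC kind it may share reads with a near copy, which makes its value uncertain. Adjusted p with 9 libraries was 0.0547 for Arrdc3, 0.0547 for Nrip1 and 0.101 for Slc16a6 and lay between 0.183 and 0.525 for Elmsan1, Cp, Ccl2, LOC100862578 and Scimp (limma).

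**Figure D2:**
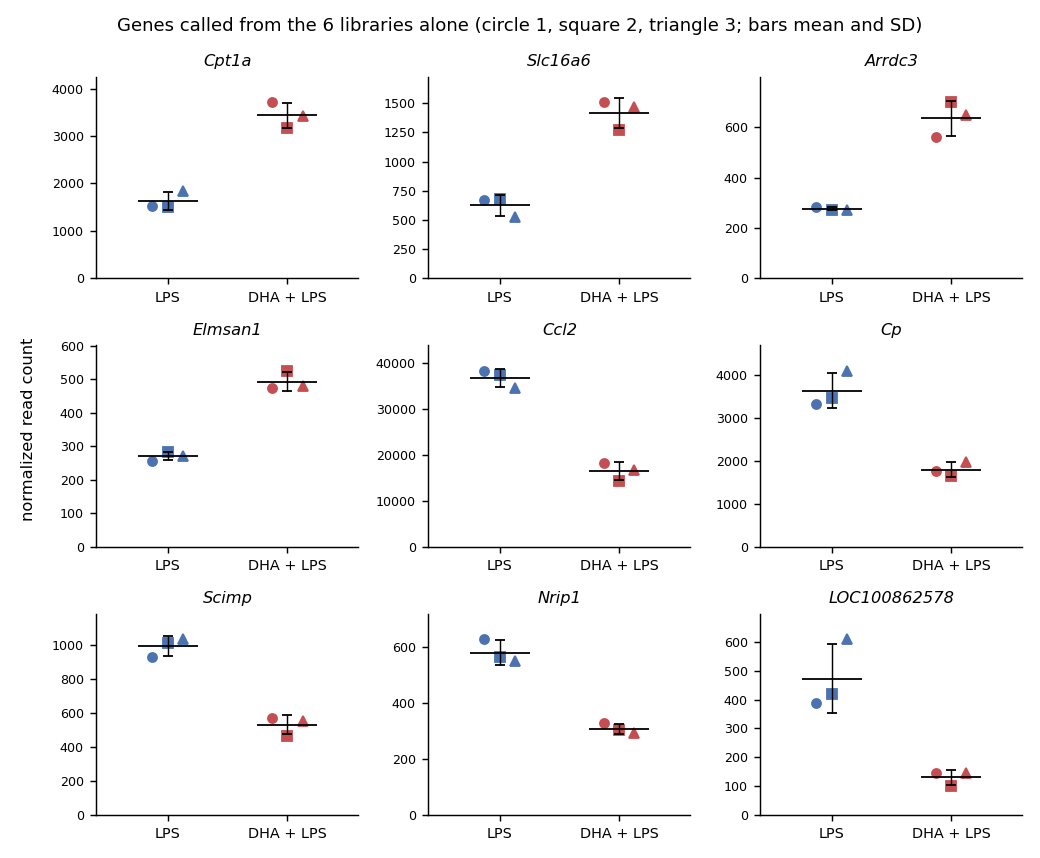
Normalized read counts of the 9 genes called from the 6 libraries alone, 1 panel per gene with its own y axis from 0. Points are libraries (circle 1, square 2, triangle 3), lines are group means and bars the SD over 3 libraries; in each panel the groups are apart, with Cpt1a at 1628 ± 191 in LPS and 3436 ± 267 in DHA + LPS.

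The 12 largest rises among called genes with at least 50 normalized counts in DHA + LPS shared an order: in 11 of them DHA + LPS 2 was the highest and DHA + LPS 1 the lowest library of the group. Nat8l, the enzyme that makes N-acetylaspartate, had 4.3, 3.5 and 9.2 normalized counts in LPS and 17.8, 113 and 42.3 in DHA + LPS (log2 change 2.86, SE 0.61; limma adjusted p = 0.0445). All 3 DHA + LPS libraries were above LPS, DHA + LPS 1 by the least. Slc27a6, a fatty acid transport protein, had 12, 16.1 and 11.3 in LPS and 29, 106 and 69 in DHA + LPS (log2 change 2.12, SE 0.45). Aatk, a kinase named for its rise in apoptosis, had 51.1, 42.6 and 29.7 and 100.3, 269.5 and 150.2 (log2 change 1.96). Peli2, a ubiquitin ligase that acts on IRAK kinases below TLRs, went from 64.1, 83 and 43 to 136, 366 and 232 (log2 change 1.87). Tbc1d2, which switches off the small GTPase Rab7 on endosomes, had 126, 112 and 93.1 and 189.5, 501 and 314 (log2 change 1.49). The same order of DHA + LPS libraries held for N4bp3, Gpr155, Trim16, 6430548M08Rik, Rasgef1a and Cnnm2, with changes of 1.52 to 1.91. The exception was Per2, a repressor of the circadian clock, whose 3 DHA + LPS libraries lay within 102 to 116. Efcc1, a coiled-coil protein, had the widest gap upward of the genes with at least 50 counts: 33.7, 32.3 and 29.7 in LPS and 78, 97 and 86.8 in DHA + LPS, 1.19 (log2) between the nearest libraries. Sema3c, a secreted semaphorin, showed 38, 32.3 and 37.9 and 89.2, 74.4 and 76.8, a rise of 1.13 (log2; limma adjusted p = 0.038).

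The 12 largest falls had another order: in 11 of them LPS 3 was the highest LPS library. Lipg, endothelial lipase, which cleaves phospholipids of lipoproteins, had 613, 569 and 2683 normalized counts in LPS and 172, 134 and 150.2 in DHA + LPS (log2 change -2.69, SE 0.54; limma adjusted p = 0.0478). Without LPS 3 its change was -1.96. The chemokine Ccl12, a neighbour of Ccl2 in function that also binds CCR2, had 247, 225 and 429 in LPS and 73.6, 81.2 and 72.3 in DHA + LPS (log2 change -1.91, -1.63 without LPS 3; limma adjusted p = 0.0149). Stra6, the cell-surface receptor that takes up retinol, had 132, 129 and 234 and 46.8, 56.4 and 40.1 (log2 change -1.72, -1.44 without LPS 3). Crispld2, a secreted protein that binds LPS, had 32.6, 35.7 and 108 and 13.4, 10.1 and 11.1 (log2 change -2.04, -1.49 without LPS 3). Hamp, hepcidin, the peptide hormone that blocks iron export, had 64.1, 69.1 and 169 and 35.7, 24.8 and 26.7 (log2 change -1.63, -1.19 without LPS 3). Serpina3g, a serine protease inhibitor of a large cluster of near copies, had 13713, 14378 and 22975 and 6166, 5619 and 5865 (log2 change -1.49). The exception to the order was Mmp10, stromelysin 2, which was lowest in LPS 3: 62, 79.5 and 35.8 in LPS and 13.4, 22.6 and 17.8 in DHA + LPS (log2 change -1.62, -1.94 without LPS 3). The pseudogene Art2a-ps changed by -2.65, and Ddx4, Hoxb2 and P2rx3 by -1.51, -1.49 and -1.47. LOC100862578 completes the 12. Gm14446, a gene model that the 8-library fit did not call, had one of the widest gaps downward, with 1497, 1374 and 5978 in LPS and 629, 471 and 658 in DHA + LPS (log2 change -1.99, -1.30 without LPS 3; limma adjusted p = 0.0781).

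**Figure D3:**
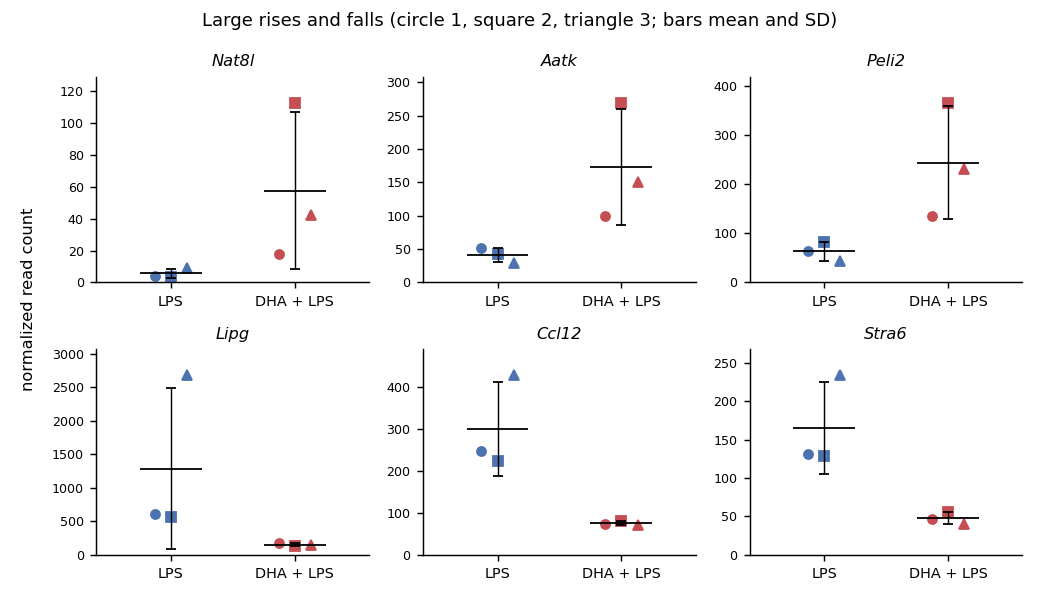
Normalized read counts of 3 of the largest rises (Nat8l, Aatk, Peli2) and 3 of the largest falls (Lipg, Ccl12, Stra6), each panel from 0 on its own axis, with points for libraries (circle 1, square 2, triangle 3), lines for means and bars for the SD over 3 libraries. DHA + LPS 2 (square) is the highest in the 3 rises, at 113 for Nat8l, and LPS 3 (triangle) the highest in the 3 falls, at 2683 for Lipg.

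Genes that oxidise fatty acids had mostly positive changes. Of 37 kept genes of mitochondrial and peroxisomal fatty acid oxidation, 29 had a positive and 8 a negative change, with a median of 0.26, against -0.0007 over all genes. Of these, 4 rose and 0 fell, beside 1.11% of all genes called higher. Of the 35 with at least 50 counts 23 lay above LPS in all libraries and 0 below, beside 13.9% and 16.5% of all genes. Besides Cpt1a the 4 were Hadh, the hydroxyacyl-CoA dehydrogenase of mitochondrial beta-oxidation, with 272, 287 and 227 normalized counts in LPS and 370.0, 530.0 and 516 in DHA + LPS (log2 change 0.84), Crat, which exchanges acyl groups between CoA and carnitine (log2 change 0.56), and Acads, the short-chain acyl-CoA dehydrogenase (log2 change 0.42). Etfdh, which passes electrons from fatty acid oxidation to ubiquinone, had 519.5, 527 and 491 and 646, 674 and 642, all DHA + LPS libraries above LPS (log2 change 0.35; limma adjusted p = 0.0542). The list stood at 0.25, 0.39 and 0.27 in DHA + LPS 1, 2 and 3 and at 0.02, 0.04 and -0.05 in LPS 1, 2 and 3, as the median distance of its genes from their LPS mean.

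Genes of lipid droplets rose in part. Plin2, which covers the droplets of most cells, had 11175, 10595 and 15607 normalized counts in LPS and 25067, 25359 and 24426 in DHA + LPS. The 3 DHA + LPS libraries were close together and lay above all LPS libraries, of which LPS 3 was the highest (log2 change 1.02, SE 0.14, 1.20 without LPS 3; limma adjusted p = 0.0195). Hilpda, an inhibitor of the triglyceride lipase ATGL, had 1609.7, 1512 and 1361 and 3310.3, 2307 and 2844 (log2 change 0.90; limma adjusted p = 0.0199). Plin3, another coat protein, had 1497, 1506 and 1609.5 and 2153, 2798 and 2310.3 (log2 change 0.65; limma adjusted p = 0.0252). Lipe, hormone-sensitive lipase, which breaks down diglyceride, had lower values, 736, 717 and 898 and 638, 521 and 509 (log2 change -0.50; limma adjusted p = 0.0658), and Lipa, the acid lipase of lysosomes, had higher ones (log2 change 0.46; limma adjusted p = 0.091). Of the 16 kept genes of this list 3 rose and 0 fell, beside 1.11% and 1.58% of all genes, and the median was 0.24 (0.14 without LPS 3). Angptl4, a PPAR target that inhibits lipoprotein lipase, had 377, 353 and 515 and 807, 534 and 541 (log2 change 0.59; limma adjusted p = 0.113). Of 19 kept genes of fatty acid uptake, binding and activation, Slc27a6 alone rose and 0 fell, beside 1.11% and 1.58% of all genes. The list median was 0.18 (0.12 without LPS 3). Acot2, a mitochondrial thioesterase, had a log2 change of 0.88 (limma adjusted p = 0.0543) and Fabp4, a cytosolic fatty acid carrier, one of 0.50 (limma adjusted p = 0.138).

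Genes that build lipids had mostly negative changes, and in both lists LPS 3 lay on the side of the DHA + LPS libraries. Srebf1, which encodes the transcription factor SREBP1 of fatty acid synthesis, fell: it had 2729, 2432 and 2657 normalized counts in LPS and 2073, 1749 and 1650.4 in DHA + LPS (log2 change -0.52, SE 0.10; limma adjusted p = 0.0381). It was the 1 gene called of 20 kept genes of fatty acid synthesis, desaturation and elongation, beside 1.58% of all genes called lower. Of the 20, 14 had a negative change (median -0.26, but -0.10 without LPS 1 and -0.15 without LPS 2). In the cholesterol synthesis list 23 of 25 had a negative change and the median was -0.36, yet 0 were called in the 8-library fit, and 3 of the 24 with at least 50 counts lay below LPS in all libraries, beside 16.5% of all genes. Its median stood at 0.33 and 0.30 in LPS 1 and 2, at -0.68 in LPS 3 and at -0.44, -0.33 and -0.34 in DHA + LPS 1, 2 and 3, so LPS 3 was the lowest of all 6. Without LPS 3 the median change was -0.71, and without LPS 1 or LPS 2 it was -0.21 or -0.20. Acat2, which makes acetoacetyl-CoA, shows the pattern, with 1199.9, 1193 and 559.7 in LPS and 459, 515 and 529.7 in DHA + LPS (log2 change -0.89, -1.26 without LPS 3; limma adjusted p = 0.11). Sc5d, a late enzyme of the pathway, had a log2 change of -0.70 (limma adjusted p = 0.0849), and of -0.95 without LPS 3. Scd2, a desaturase of fatty acid synthesis, had 4004, 4195 and 1558 and 1538, 2707 and 2112, with LPS 3 near the DHA + LPS libraries (log2 change -0.52, -0.99 without LPS 3; limma adjusted p = 0.47).

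Export and hydrolysis of lipids showed mixed values. Of 16 kept LXR targets and efflux genes 0 were called in either direction (median -0.16, but -0.07 without LPS 3 and -0.08 without DHA + LPS 2): the cholesterol exporters Abca1 and Abcg1 had log2 changes of -0.47 and -0.94 (limma adjusted p = 0.138 and 0.108), with all DHA + LPS libraries below all LPS libraries, and Npc1, which moves cholesterol out of lysosomes, one of 0.44 (limma adjusted p = 0.0524) with all above. Of 13 lipases 2 fell, beside 1.58% of all genes, Lipg and Pla2g16, a phospholipase A of adipocytes, with 1543, 1355 and 1706 in LPS and 1008, 727 and 869 in DHA + LPS (log2 change -0.83; limma adjusted p = 0.0222).

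Of 18 kept genes of lipid-sensing receptors and GPR120 signalling 13 had a positive change (median 0.10, -0.02 without LPS 3). Of the 18, 17 had at least 50 counts. In this list 1 gene rose and 0 fell, beside 1.11% and 1.58% of all genes. Ffar4, the gene of GPR120, had 2 reads in LPS 3 and 0 in the other 5 libraries, and a count of 0 allows up to 3 reads, or 3.26 to 6.69 normalized counts in those 5, counting error only. Its level with DHA could not be compared at this depth. Gnaq, the G protein alpha subunit to which GPR120 couples, rose, with 2387, 2620.4 and 2055 normalized counts in LPS and 3208, 3287 and 3398 in DHA + LPS (log2 change 0.49; limma adjusted p = 0.0371). Pparg, the nuclear receptor PPAR gamma, had 75, 62.2 and 75.7 in LPS and 89.2, 471 and 264 in DHA + LPS. DHA + LPS 1 lay close to LPS and DHA + LPS 2 far above it (log2 change 1.65, SE 0.52; limma adjusted p = 0.118). The same order held in Arrb1, beta-arrestin 1, with 223, 222 and 145 and 392, 1512 and 821 (log2 change 2.02, SE 0.44; limma adjusted p = 0.0563). Arrb2, beta-arrestin 2, which carries the signal of GPR120 to TAB1, and Tab1 itself had log2 changes of 0.03 and -0.04 (limma adjusted p = 0.89 and 0.861). Pdk4, a PPAR target that spares glucose, had 0 reads in each LPS library and 0, 3 and 1 in DHA + LPS, too few to compare.

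Chaperones of the endoplasmic reticulum (ER), which fold secreted and membrane proteins and are induced by the unfolded protein response, formed, of the 42 lists, the one with the most genes called higher. All 29 kept genes had a positive change (median 0.29). Of these 13 rose and 0 fell, beside 1.11% and 1.58% of all genes, and 20 lay above LPS in all libraries, beside 13.9%. The median stood at 0.38, 0.33 and 0.34 in DHA + LPS 1, 2 and 3 and within 0.02 of 0 in each LPS library. Single genes varied more: DHA + LPS 1 was the highest library in Herpud1, Hyou1 and Creld2, and LPS 3 the lowest in Herpud1. Herpud1, which helps to retire misfolded ER proteins, had 441, 416 and 221 normalized counts in LPS and 1072, 832 and 955 in DHA + LPS (log2 change 1.46, 1.14 without LPS 3; limma adjusted p = 0.0329). Hyou1, a large HSP70 of the ER, had 2681, 2620.4 and 2735 and 4893, 3922 and 4178 (log2 change 0.69, SE 0.10; limma adjusted p = 0.0217). Creld2, a secreted protein of the ER stress response, had 569.5, 600.4 and 626 and 1286, 881 and 1145 (log2 change 0.87; limma adjusted p = 0.0244). In all 3 genes the groups did not overlap, as in every called gene. Sdf2l1 and Dnajb9, cofactors of the chaperone BiP, rose by 0.79 and 0.75, and among the other genes called were Xbp1, the factor spliced by the stress sensor IRE1, Hsp90b1, Calr, Manf and Pdia3, Pdia4 and Pdia6. Hspa5, BiP itself, had 29599, 28790.4 and 32965 in LPS and 52217, 38259.7 and 47048 in DHA + LPS, all above LPS but with a limma adjusted p of 0.0522 (log2 change 0.58).

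Promoters of these genes were read from the RefSeq table (build GRCm38.p6, 250 bases before to 50 after the annotated start), which holds 10464 of the 13895 genes by gene ID. The ER stress element was searched as CCAAT, any 9 bases, CCACG on either strand (its first letters are also a CCAAT box, the site of NF-Y). A gene counted as holding a motif if any of its promoters did. It stood in 9 of the 24 genes found for the list (37.5%) and in 20 of 10464 kept genes (0.191%). Counted per promoter, a different measure, it stood in 39 of all 32851 in the table (0.119%). The 9 genes were Hspa5, Hsp90b1, Calr, Canx, Pdia6, Dnajc3, Creld2, Syvn1 and Ero1lb, with changes of 0.06 (Ero1lb) to 0.87 (Creld2). The promoter of Creld2 is shown because it carries 1 match in the one of the 9 with the largest change. It is given as the 250 bases before the start, with the match beginning 126 bases before it; the capitals mark the match, here on the opposite strand (chr15:88819396-88819645, plus strand).
Creld2 promoter: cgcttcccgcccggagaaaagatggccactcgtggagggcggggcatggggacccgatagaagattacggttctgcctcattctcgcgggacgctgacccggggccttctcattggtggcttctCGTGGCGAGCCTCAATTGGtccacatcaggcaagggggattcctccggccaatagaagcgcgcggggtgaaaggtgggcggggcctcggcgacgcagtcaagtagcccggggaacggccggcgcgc

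Other stress lists held fewer calls. Of 31 kept genes of the integrated stress response and amino acid supply, 26 had a positive change (median 0.27, 0.15 without DHA + LPS 1). Of these 31, 0 rose and 1 fell, beside 1.11% and 1.58% of all genes. Wars, the tryptophanyl-tRNA synthetase, which interferon also induces, fell from 7595, 7203 and 8957 to 5370.1, 4029 and 4420.4 (log2 change -0.79). Of 33 kept NRF2 targets, the genes of antioxidant defence, 30 had a positive change (median 0.37, and 0.14 without LPS 3, where the list stood at -0.42). Of these 2 rose, beside 1.11% of all genes: Cat, catalase, with 2075, 2207 and 1535 in LPS and 3169.9, 3771 and 3359 in DHA + LPS (log2 change 0.84; limma adjusted p = 0.0244), and Cbr3, a carbonyl reductase (log2 change 1.01). Slc7a11, which imports cystine for glutathione, had 10626, 11979 and 1929 and 19806, 15139 and 19329.6; its change of 1.52 was 0.67 without LPS 3 (limma adjusted p = 0.206). Hmox1, heme oxygenase 1, had a log2 change of 0.77, and of 0.44 without LPS 3 (limma adjusted p = 0.144). Of 20 HSF1 targets of the cytosol 10 had a positive change (median -0.01, 0.12 without LPS 3). Dnajb4 alone rose (log2 change 0.44) and 0 fell, beside 1.11% and 1.58% of all genes.

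Genes driven by interferon had lower values with DHA. All 40 kept interferon-stimulated antiviral genes had a negative change (median -0.65); 13 fell and 0 rose, beside 1.58% and 1.11% of all genes, and 39 lay below LPS in all libraries, beside 16.5%. LPS 3 was the highest LPS library for this list (0.25, with LPS 1 and 2 at -0.10 and -0.15) and DHA + LPS 2 the lowest of all (-0.88, with DHA + LPS 1 and 3 at -0.45 and -0.61); without LPS 3 the median change was -0.53. Irf7, the factor that amplifies interferon production, had 35738, 32798 and 43174 normalized counts in LPS and 23250.5, 16213 and 18641 in DHA + LPS (log2 change -0.95, SE 0.15; limma adjusted p = 0.0241). Oas3, a sensor of double-stranded RNA that activates RNase L, had 20242, 20484 and 25536 and 14432, 10981 and 11843 (log2 change -0.83; limma adjusted p = 0.0244). Both genes were lower in every DHA + LPS library. Mx1, an antiviral GTPase, had 38561, 37449 and 66069.8 and 22604, 15722 and 20013 (log2 change -1.25, -0.98 without LPS 3), Ifi44 5271, 5061 and 7139 and 3281, 2854 and 3402 (log2 change -0.86), and Isg20, an exonuclease, fell by 1.10 on the log2 scale. Ifnb1, interferon beta itself, was low: 21.7, 35.7 and 65.5 in LPS and 11.1, 9 and 8.9 in DHA + LPS (log2 change -1.84, -1.44 without LPS 3; limma adjusted p = 0.0522). Its DHA + LPS values correspond to between 5 and 8 reads.

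The guanylate-binding proteins and immunity-related GTPases, which attack the vacuoles of intracellular pathogens, showed the same direction: all 18 kept genes had a negative change (median -0.71, -0.51 without LPS 3). All 18 lay below LPS in every library, beside 16.5% of all genes. Of these 1 fell past the threshold, beside 1.58% of all genes: Gbp2, with 102889, 103732 and 118245 normalized counts in LPS and 74934, 56460.4 and 71959.8 in DHA + LPS (log2 change -0.68, SE 0.14; limma adjusted p = 0.0376). Tgtp1, an immunity-related GTPase with a close copy, Tgtp2, had 5274, 5348 and 14456 and 3201, 2820.1 and 3209.5; LPS 3 stood far above LPS 1 and 2, and the change was -1.27 with and -0.79 without it (limma adjusted p = 0.0951). In the immunoproteasome, Psme1, an activator subunit, and Psmb10, a catalytic subunit, both interferon-induced, fell by 0.52 and 0.64 on the log2 scale. They were the 2 called of 31 proteasome genes, beside 1.58% of all genes called lower (list median -0.08, between -0.14 and -0.005 when 1 library was left out). Of 17 genes of MHC class II and costimulation all had a negative change (median -0.36); 7 of the 14 with at least 50 counts lay below LPS, beside 16.5% of all genes. In this list 1 gene fell, beside 1.58%: Cd86, a ligand of CD28 on T cells, went from 2494, 2334 and 3264 to 1346, 1269.7 and 1403 (log2 change -0.99, SE 0.13; limma adjusted p = 0.0164).

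In promoters the interferon response element was searched as GAAA, any 2 bases, GAAA on either strand (a spacing that other IRF sites share). It stood in a promoter of 13 of 29 genes found for the antiviral list (44.8%) and of 9 of 10 for the GTPases (90%). Of 10464 kept genes 423 held it (4.04%). Counted per promoter, a different measure, it stood in 3.44% of all 32851. Promoters of Oas3 and Gbp2 (250 bases before the start) are shown, a called member of each list with 1 match; capitals mark the match, beginning 75 and 59 bases before the start, on the opposite strand in Gbp2 (chr5:120777660-120777909, minus strand; chr3:142620413-142620662, plus strand). A match is a description, not a site or a cause, here and for the other motifs.
Oas3 promoter: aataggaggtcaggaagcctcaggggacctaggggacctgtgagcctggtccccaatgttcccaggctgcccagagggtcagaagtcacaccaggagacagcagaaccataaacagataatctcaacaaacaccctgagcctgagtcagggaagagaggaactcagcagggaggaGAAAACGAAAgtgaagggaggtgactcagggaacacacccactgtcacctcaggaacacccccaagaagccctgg
Gbp2 promoter: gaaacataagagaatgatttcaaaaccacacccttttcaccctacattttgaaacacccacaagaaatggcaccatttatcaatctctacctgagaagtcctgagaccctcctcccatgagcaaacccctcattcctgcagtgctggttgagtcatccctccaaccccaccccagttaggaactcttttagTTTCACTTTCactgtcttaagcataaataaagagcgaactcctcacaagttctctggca

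Among secreted signals, 3 chemokines that attract monocytes fell, while Tnf, Il6 and Il1b did not pass the test. Of 14 kept CC chemokines 11 had a negative change (median -0.45, but -0.25 without DHA + LPS 2), and 3 fell, beside 1.58% of all genes: Ccl2, Ccl12 and Ccl7. Ccl7, another ligand of CCR2, had 8395, 8320.0 and 13902 normalized counts in LPS and 4284, 3426 and 3985 in DHA + LPS (log2 change -1.35, -1.11 without LPS 3; limma adjusted p = 0.0217). Of 12 CXC chemokines 6 had a positive and 6 a negative change. Their median of 0.02 had no stable sign: it was -0.15 without LPS 3, -0.05 without LPS 2, -0.11 without DHA + LPS 2 and -0.01 with quantile scaling. Cxcl10, which attracts T cells and is induced by interferon, fell, with 56126, 51819 and 109084 and 32689, 25402 and 29401 (log2 change -1.23, -0.89 without LPS 3, limma adjusted p = 0.0462). Of the 12 it alone was called, beside 1.58% of all genes called lower. Cxcl9, its relative, had 1893, 1900.2 and 4458 and 1126, 926 and 1145 (log2 change -1.25, -0.84 without LPS 3; limma adjusted p = 0.0729). Cxcl3, a neutrophil attractant, lay higher in all DHA + LPS libraries, with 9960.1, 10114 and 443 in LPS and 22508, 15205 and 18735 in DHA + LPS (log2 change 2.39, 0.89 without LPS 3; limma adjusted p = 0.246).

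Of 28 kept cytokine genes 3 fell, beside 1.58% of all genes. Il33, an alarmin of the interleukin 1 family, had 274, 257 and 309 normalized counts in LPS and 127, 170.3 and 148 in DHA + LPS (log2 change -0.92; limma adjusted p = 0.0371). Edn1, endothelin 1, a vasoconstrictor peptide, had 10663, 9799.6 and 8545 and 6124, 4358 and 5442 (log2 change -0.87; limma adjusted p = 0.0222). Csf1, the growth factor of macrophages, had 7188, 6779 and 7027 and 5526, 4330.0 and 4703 (log2 change -0.54; limma adjusted p = 0.035). Its receptor gene Csf1r rose, with 8155, 7819.9 and 7572 in LPS and 11449, 10839 and 10704 in DHA + LPS (log2 change 0.49, SE 0.09, limma adjusted p = 0.035). It was the 1 called of 11 macrophage markers, beside 1.11% of all genes called higher. Of the 11, 7 had a positive and 4 a negative change (median 0.09, -0.006 without LPS 3). In all libraries 2 lay above LPS and 2 below, Fcgr1 among the latter (log2 change -1.35, -0.94 without LPS 3, limma adjusted p = 0.0591). Il23a, the p19 subunit of interleukin 23, lay higher, with 396, 348 and 129 and 1072, 725 and 879 (log2 change 1.75, 1.25 without LPS 3; limma adjusted p = 0.0586).

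Tnf, Il6 and Il1b, the inflammatory cytokines most used to gauge a response to LPS, had overlapping groups. Tnf had 104072, 99204 and 56873 normalized counts in LPS and 97130.3, 60863 and 76411 in DHA + LPS (log2 change -0.13, -0.41 without LPS 3; limma adjusted p = 0.809). Il6 had 16329, 15859.8 and 5043 and 10542, 8666 and 11563, with LPS 3 below every DHA + LPS library (log2 change -0.10; limma adjusted p = 0.913). Without LPS 3 the log2 change of Il6 was -0.66, which passed the test (limma adjusted p = 0.0119). Il1b had 221480.5, 224382 and 83957 and 219000.1, 149428 and 194820.5, with a log2 change of 0.20, and of -0.27 without LPS 3 (limma adjusted p = 0.784). Quantile scaling turned the sign for Tnf and Il6, to 0.03 and 0.04. Il12b, a subunit of interleukins 12 and 23, and Ptgs2, the inducible cyclooxygenase, also overlapped and had LPS 3 lowest (log2 changes 0.18 and 0.15, -0.12 and -0.25 without LPS 3; limma adjusted p = 0.704 and 0.812). Il10, the anti-inflammatory cytokine, was low and lay below LPS in all DHA + LPS libraries, with 25, 35.7 and 118 and 6.7, 12.4 and 20.0 (log2 change -1.90, -1.26 without LPS 3; limma adjusted p = 0.0995).

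Sensors and enzymes of the inflammatory response fell in part. Nos2, inducible nitric oxide synthase, had 22275, 21073 and 33340.3 normalized counts in LPS and 11518, 9528 and 10391 in DHA + LPS (log2 change -1.26, SE 0.17, -1.05 without LPS 3, limma adjusted p = 0.0195). It was the 1 gene called of 13 of arginine, nitric oxide and itaconate, beside 1.58% of all genes called lower. Arg1, arginase, had 118, 128 and 123 and 123, 192 and 165, which overlap (log2 change 0.35; limma adjusted p = 0.319). Of 19 genes of interleukin 1 antagonists and the inflammasome 14 had a negative change (median -0.40, -0.19 without LPS 3), and 3 fell, beside 1.58% of all genes: the caspases Casp1 and Casp4, which cleave gasdermin D, and Aim2, a sensor of cytosolic DNA. Casp4 had 2108, 2236 and 3303 and 1474, 1099 and 1466 (log2 change -0.90), Casp1 changed by -0.52 and Aim2 by -0.64. Il1rn, the interleukin 1 receptor antagonist, had 38179.6, 37694 and 87240.1 and 22582, 17878 and 20993 (log2 change -1.30, -0.90 without LPS 3; limma adjusted p = 0.0588). Of 23 genes of TLR4 signalling, Myd88, the first adaptor, fell from 5856, 5626 and 6109 to 4617, 3507 and 3954 (log2 change -0.55) and Ikbke, a kinase of the interferon branch, from 13304, 12796 and 14425 to 8966, 7128 and 7739 (log2 change -0.77; limma adjusted p = 0.0195), while Peli2 rose. These are 2 lower and 1 higher, beside 1.58% and 1.11% of all genes. Of 23 NF-kB subunits and feedback inhibitors 21 had a negative change (median -0.21, -0.12 without DHA + LPS 2 and -0.34 without DHA + LPS 1), 7 lay below LPS in all libraries, beside 16.5% of all genes, and 0 were called. None of 13 DUSP phosphatases was called. Of 23 immediate early factors 1 rose and 0 fell, beside 1.11% and 1.58% of all genes. The 1 was Klf10, a target of TGF-beta (log2 change 0.63).

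**Figure D4:**
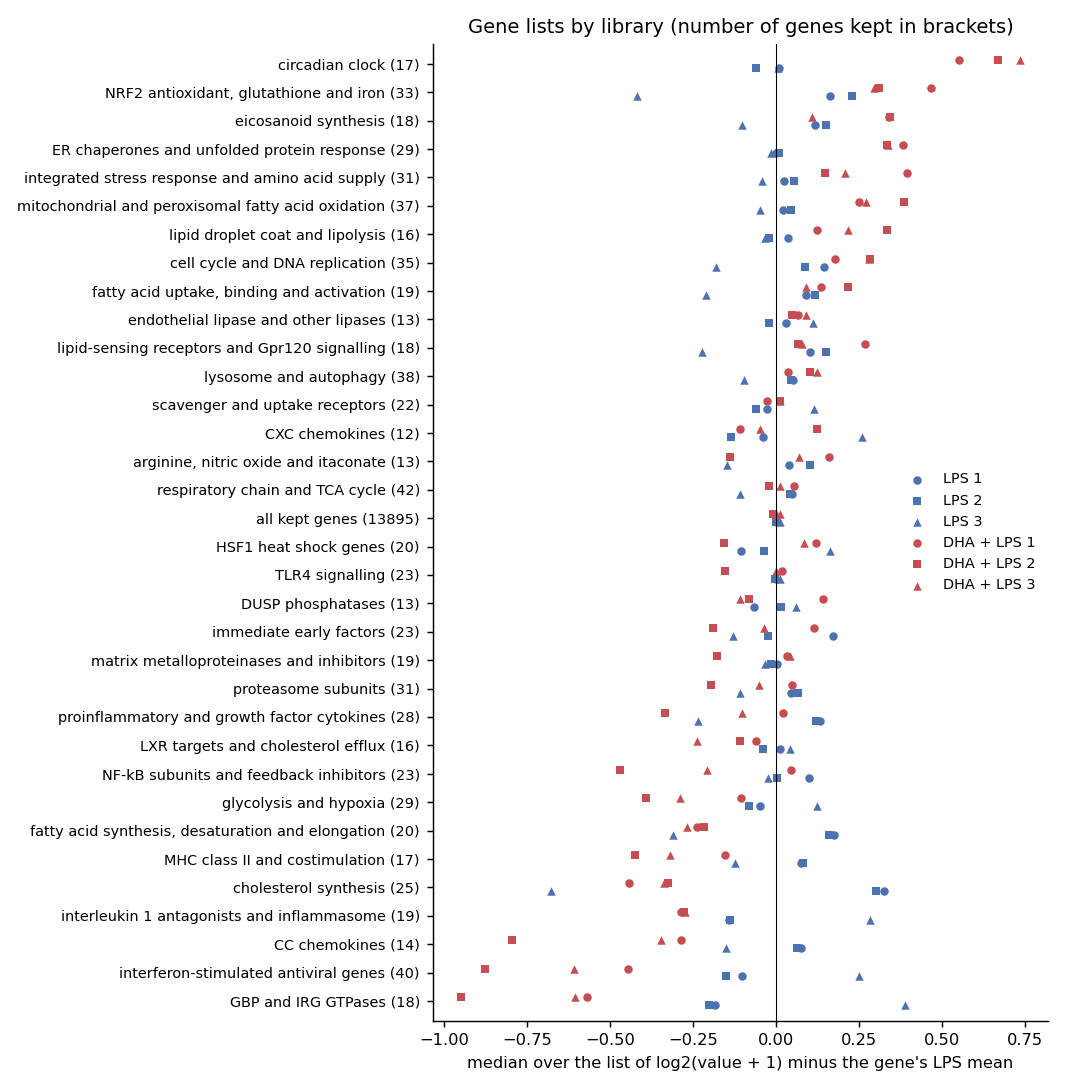
Gene lists by library. Each row is a list with its number of kept genes, and the x axis is the median over its genes of log2(count + 1) minus the gene's mean in the 3 LPS libraries; blue points are LPS and red points DHA + LPS libraries (circle 1, square 2, triangle 3). The clock, ER chaperone and fatty acid oxidation rows have all red points to the right of all blue ones and the interferon and GTPase rows all to the left, while LPS 3 lies at -0.68 for cholesterol synthesis.

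Clock genes had the highest median change of the 42 lists. Of 17 kept genes 14 had a positive change (median 0.68, 0.49 without LPS 3). In this list 6 rose and 0 fell, beside 1.11% and 1.58% of all genes. Of the 15 with at least 50 counts, 10 lay above LPS, beside 13.9% of all genes. This list was taken up because earlier results of these data showed clock genes among the changes, so its count is not independent. The core clock runs on repressors, PER and CRY proteins, that close a loop on the activators CLOCK and BMAL1. Per2 had 35.9, 32.3 and 49.1 normalized counts in LPS and 102, 110.5 and 116 in DHA + LPS, the widest gap of the list (log2 change 1.48, SE 0.21; limma adjusted p = 0.0197). Cry1 had 428, 472 and 404 and 959, 674 and 890.3 and Cry2 85.9, 79.5 and 83.9 and 149, 135 and 168 (log2 changes 0.94 and 0.85). Nr1d1, REV-ERB alpha, which represses Bmal1, had 42.4, 40.3 and 58.3 and 95.9, 85.7 and 84.6 (log2 change 0.92; limma adjusted p = 0.041). Tef, an output factor of the PAR bZIP family, had 262, 285 and 217 and 508, 731 and 616 (log2 change 1.27; limma adjusted p = 0.0147), and Per1 was also called. Times of day of treatment and collection are not given in the labels, and their part in these values was not tested.

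The E-box CACGTG is bound by CLOCK and BMAL1 and shared by many other bHLH factors. It stood in a promoter of 5 of 15 clock genes in the RefSeq table (33.3%), against 1218 of 10464 kept genes (11.6%). Counted per promoter, a different measure, it stood in 7.15% of all. The 5 were Per1, Cry1, Tef, Bhlhe41 and Gm129, with log2 changes of 0.66, 0.94, 1.27, 0.68 and -0.28 in that order. Gm129, the one with a negative change, held 3 matches and each of the others 1. The promoter of Tef, the called member with the largest change among them, is shown as the 250 bases before the start, with its E-box in capitals, beginning 127 bases before it (chr15:81802423-81802672, plus strand).
Tef promoter: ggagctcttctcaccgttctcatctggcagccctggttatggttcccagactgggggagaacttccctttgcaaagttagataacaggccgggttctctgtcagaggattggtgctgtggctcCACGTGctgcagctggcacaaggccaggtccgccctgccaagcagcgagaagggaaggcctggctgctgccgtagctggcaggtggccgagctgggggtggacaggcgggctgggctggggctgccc

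**Figure D5:**
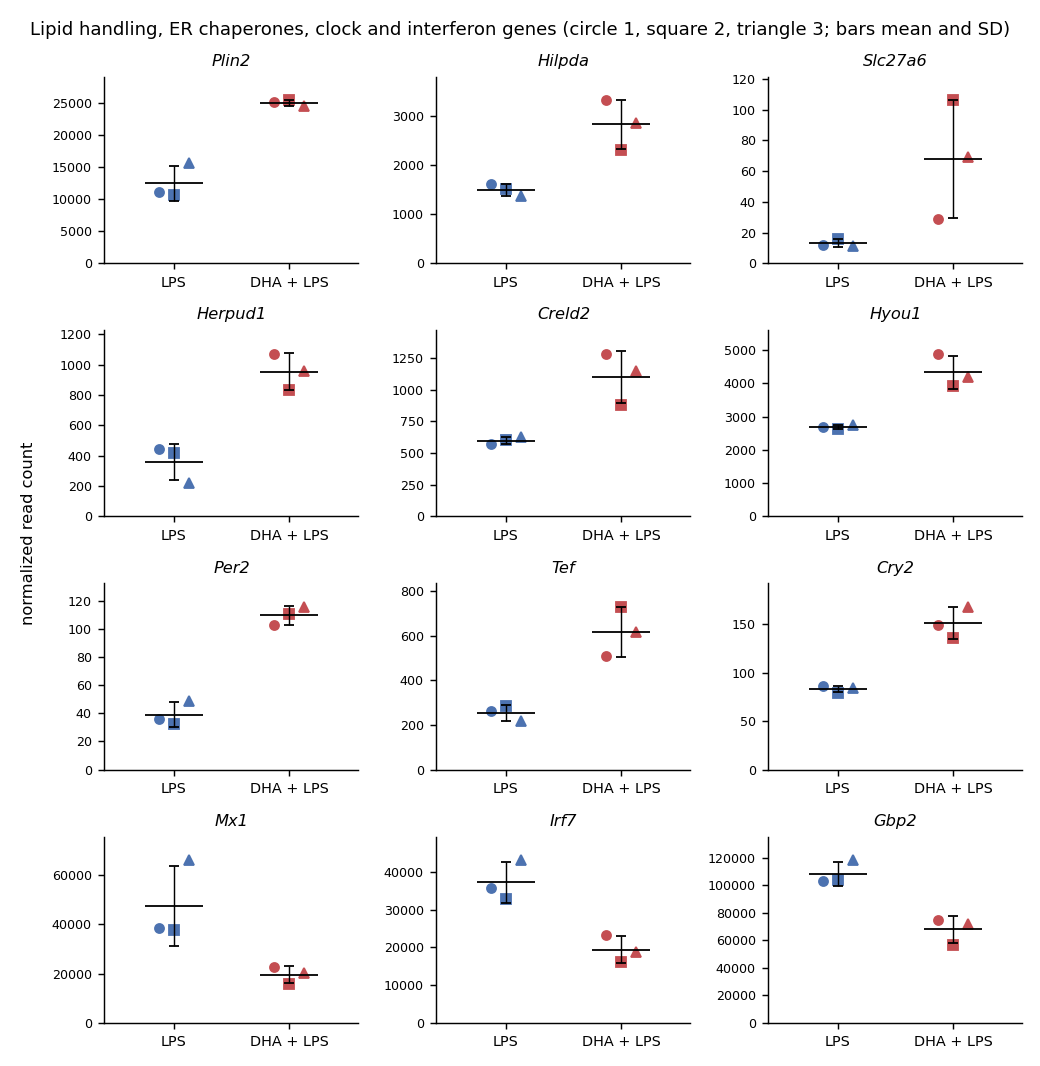
Normalized read counts of 12 genes, 3 each of lipid handling (Plin2, Hilpda, Slc27a6), ER chaperones (Herpud1, Creld2, Hyou1), the clock (Per2, Tef, Cry2) and interferon response (Mx1, Irf7, Gbp2), each panel from 0 on its own axis. Points are libraries (circle 1, square 2, triangle 3), lines group means and bars the SD over 3 libraries; the groups are apart in all 12 panels, and the DHA + LPS libraries of Plin2 span 24426 to 25359.

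Genes of tissue remodelling and energy metabolism completed the called lists. Of 19 matrix metalloproteinases and inhibitors 3 fell, beside 1.58% of all genes: Mmp10, Mmp13, a collagenase, with 3927, 3860.4 and 5395 normalized counts in LPS and 2376, 1977 and 2549.6 in DHA + LPS (log2 change -0.92; limma adjusted p = 0.0244), and Timp1, an inhibitor of these proteases, with 3594, 3431 and 3387 and 2490.0, 2164 and 2305 (log2 change -0.58; limma adjusted p = 0.0217). Of 29 genes of glycolysis and hypoxia 24 had a negative change (median -0.24, -0.16 without LPS 3); 14 lay below LPS in all libraries and 2 fell, beside 16.5% and 1.58% of all genes, Hk3, a hexokinase of myeloid cells (log2 change -0.61), and Pfkl, a phosphofructokinase (log2 change -0.55). Among 42 genes of the respiratory chain and TCA cycle the median was 0.01 (-0.05 without LPS 3). Of these 1 rose and 0 fell, beside 1.11% and 1.58% of all genes. Idh2, mitochondrial isocitrate dehydrogenase, rose from 429, 431 and 439 to 606, 854 and 614 (log2 change 0.66, limma adjusted p = 0.0389). Of 38 genes of lysosome and autophagy 1 rose and 0 fell, beside 1.11% and 1.58% of all genes. The 1 was Wipi1, an early autophagy factor (log2 change 0.74). The list had a median of 0.07, and of -0.02 without LPS 3. All 38 had at least 50 counts, and 10 lay above LPS in all libraries and 8 below, beside 13.9% and 16.5% of all genes.

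Markers of macrophage type and of other cells were compared as well; in bulk RNA, fewer cells of a type and less RNA per cell cannot be told apart. Of 17 kept markers of resident peritoneal macrophages 11 had a negative change (median -0.32, -0.14 without LPS 3), and 2 fell, beside 1.58% of all genes. These were Stra6 and Serpinb2, a plasminogen activator inhibitor, with 6862, 6143 and 7755 normalized counts in LPS and 4119.5, 3989.5 and 4667 in DHA + LPS (log2 change -0.70). Summed over the 18 markers in the table, LPS libraries held 16940 to 29323 and DHA + LPS libraries 14489 to 16548. The upper end of LPS is LPS 3 and comes largely from Cxcl13, a B cell attractant, with 1430.3, 1233 and 12479 in LPS and 961, 865 and 1040.5 in DHA + LPS (log2 change -1.56, -0.48 without LPS 3; limma adjusted p = 0.289). Timd4, a phosphatidylserine receptor of resident cells, had 195, 203 and 95.2 and 89.2, 57.5 and 82.4 (log2 change -1.04, -1.39 without LPS 3, limma adjusted p = 0.0849). The other 6 kept markers had a positive change. Bhlhe40 had 1690, 1717 and 980 in LPS and 1866, 3065 and 2405 in DHA + LPS, all above LPS (log2 change 0.76, 0.49 without LPS 3, limma adjusted p = 0.125). Gata6 had 245.6, 183.2 and 284.5 in LPS and 283.1, 327 and 341.7 in DHA + LPS, which overlap. Mast cell, basophil and eosinophil markers summed to 2116 to 2254 in LPS and 1274 to 1590 in DHA + LPS, most of it Hdc, the enzyme that makes histamine, which fell from 1839, 1703 and 1755 to 1226, 978 and 1094 (log2 change -0.69; limma adjusted p = 0.0199). Markers of T, NK and B cells summed to 401 to 435 and 315 to 350, and Cd3d, of T cells, had 3 to 10 reads in each library. Neutrophil markers summed to 10164 to 11127 and 8623 to 11721, and their median change was 0.39 (0.15 without LPS 3 and 0.70 without LPS 2). Most of that sum was Csf3r and Mmp9, with Csf3r between 4815 and 8305 in the libraries compared. S100a8 had 71.6 to 381, and Ly6g, Mpo and Elane had no values. Monocyte-derived and dendritic cell markers summed to 30731 to 48620.1 and 43013 to 50698, but 7 of the 11 kept had a negative change (median -0.45, -0.26 without LPS 2). That list stood at -0.13, 0.001 and 0.13 in LPS 1, 2 and 3 and at -0.48, -0.20 and -0.50 in DHA + LPS 1, 2 and 3, so that its libraries did not overlap. Mesothelium, fibroblast and endothelium markers summed to 29003 to 50143 and 31438 to 33526, and 12 of 14 had a negative change (median -0.36, -0.07 without LPS 3). The medians of the mast cell list and the T, NK and B cell list were -0.51 and -0.36. Hdc alone was called among markers of other cells, beside 1.58% of all genes called lower. The part of other cells in the results above was not tested.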

How the data were processed

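RNA from 9 libraries of mouse peritoneal macrophages was sequenced, and the authors deposited 1 table of normalized read counts per gene (a signal in normalized counts, not raw reads). CASAVA 1.8.2, Bowtie2, DESeq and mm9 are named in the submitters' processing notes, without roles. The deposited values divided by a worth per library gave whole reads (within 0.05 of a whole number) for 99.9 to 100% of values, and these reads served as depth and for edgeR 4.0.16 and DESeq2 1.42.0.

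Genes with a value of at least 10 in at least 3 libraries were tested with limma 3.58.1 (trend and robust options) in R 4.3.3 on log2(value + 1), with Benjamini-Hochberg adjustment over all 13895 genes and a threshold of 0.05. The fit was made with 9, 8 (without cpdA 3) and 6 libraries. A count over libraries that do not overlap used genes whose higher group averaged 50 or more. With 3 libraries against 3 a permutation test of 1 gene cannot go below p = 0.1, so none was run. The fit was tested on simulated data.

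The genes, the 42 lists and the 8-library fit were chosen with earlier results of these data known. Genes were named by rule: the 12 largest called changes and the 8 widest gaps between libraries in each direction, up to 5 members of a list (called ones first) and 25 genes set by name, some of which are not reported here. A few genes beyond these were named after their values were seen, where a count of calls was small or a level bore on a result. Lists are described by counts and medians, with no set test. Of 951 list entries 886 were found in the table. Genes were matched to RefSeq promoters by gene ID. Alternatives covered pseudocount, filter, scaling, replicate block, library weights, tool, threshold and leaving out each library.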

Additional observations from a re-analysis of the deposited data

How the results depend on the processing

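Counts of called genes depended on the libraries and on how the spread was estimated. With all 9 libraries (1 gene), the count was 3 with a filter of 50, 3 with TMM scaling, 0 with no trend or robust options, 0 at an adjusted p of 0.01, 3 with edgeR, 315 with DESeq2, 9 with only the 6 libraries compared and 4303 with library weights, a fit that stopped before it converged. Leaving out 1 library gave 0 to 373, the highest without cpdA 3. With 8 libraries (373 genes), it was 0 with no trend or robust options, 1427 with DESeq2, 5156 with library weights, 9 with the 6 libraries, 4 at an adjusted p of 0.01 and 85 with a log2 change of at least 1. Leaving out 1 more library gave 0 (DHA + LPS 3) to 1010 (DHA + LPS 1), with 943 without LPS 3. Other pseudocounts (0.5, 8), filters and scalings, and edgeR, gave 372 to 435.

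Deviations of libraries with the same replicate number correlated at 0.14, -0.07 and 0.02, and those of other pairs at -0.14 to 0.13. With deviations from means of 3 libraries these values cannot decide whether the numbers pair the samples. A fit with a replicate block gave counts of 0 (9 libraries), 582 (8 libraries) and 0 (6 libraries, added after seeing the data). For DHA + LPS against LPS, genes whose libraries do not overlap numbered 3511, and 4250 to 5405 without 1 library, since fewer libraries need to stay apart.

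The sign turned for 7 named genes, none of them called. The log2 change of Tnf was 0.028 and the log2 change of Il6 0.0392 under quantile scaling. Leaving out 1 library gave -0.41 to 0.041 for Tnf, -0.66 to 0.19 for Il6, -0.27 to 0.44 for Il1b, -0.12 to 0.34 for Il12b, -0.25 to 0.36 for Ptgs2 and -0.0361 to 0.07 for Arrb2, each lowest without LPS 3, and -0.0885 to 0.005 for the log2 change of Tab1. Of the 95 named genes called, 95 were also called by DESeq2, 94 with TMM scaling, 90 with quantile scaling, 93 without LPS 3, 14 without DHA + LPS 2 and 0 without DHA + LPS 3. The cause was not tested. Depth limits low genes most in DHA + LPS 1.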

Other observations

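Lists not described above had small medians or few calls. Of 18 genes of eicosanoid synthesis 14 had a positive change (median 0.30, 0.19 without DHA + LPS 1) and 0 were called in the 8-library fit. The list holds enzymes that turn arachidonic acid and DHA into lipid mediators, and also receptors of such mediators, Ptger2, Ptger4 and Ptgir among them. Of 35 genes of cell cycle and DNA replication 27 had a positive change (median 0.24) and 0 were called. Of 22 scavenger and uptake receptors 12 had a positive change (median 0.06, and -0.06 without LPS 3) and 0 were called. Cx3cr1, the fractalkine receptor of monocytes and macrophages, fell under the filter on low values; it had 6, 6 and 4 reads in LPS 1, 2 and 3 and 2, 68 and 27 in DHA + LPS 1, 2 and 3.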
